A study of Mus musculus with 6 samples.

Results

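The Notch receptor genes of the mouse are Notch1, Notch2, Notch3 and Notch4. They were taken by symbol from the gene tables, and all 4 of 51826 gene symbols were found in each of the 6 RNA-seq libraries. Cells came from the mammary glands of pubertal C57B6/N mice. Their genotype, SMAcreERT2/N1ICD, means that a smooth muscle actin promoter drives a tamoxifen-dependent Cre recombinase and that a second allele supplies the Notch1 intracellular domain (N1ICD). The mice received tamoxifen on postnatal day 21, and basal cells were collected 72 hours later, on day 24. From each of 3 pools of 2 to 3 mice, GFP-positive cells (GFPpos, 3 libraries) and GFP-negative cells (GFPneg, 3 libraries) were sorted, so that genotype and tamoxifen were common to both groups. The sources used here do not state what the GFP reports. The smooth muscle actin promoter is also active in vascular smooth muscle and many pericytes.

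Notch receptors are single-pass membrane proteins that are activated by ligands on neighbouring cells. Binding of a Delta-like or Jagged ligand exposes the receptor to an ADAM protease and then to gamma-secretase, which cuts within the membrane (the S3 cut) and frees the intracellular domain. The freed domain moves to the nucleus and, with the DNA-binding protein RBPJ and Mastermind coactivators, switches on target genes such as those of the Hes and Hey families. In the mammary gland Notch1 and Notch3 are known from luminal cells and their progenitors, Notch3 also marks pericytes and vascular smooth muscle, and Notch4 is best known from endothelium and from mouse mammary tumours in which viral insertion activates it.

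The codons around the S3 cut are shown because they mark where the sequence of the N1ICD allele can begin to overlap the endogenous Notch1 transcript. Each line runs from 6 codons before the codon in capitals to a conserved tryptophan codon, 5′ to 3′ on the coding strand, from GENCODE M21 transcripts on GRCm38 (mm10). The capitals mark the valine codon that follows the cut in Notch1 and the corresponding valine codon in the other receptors.
Notch1: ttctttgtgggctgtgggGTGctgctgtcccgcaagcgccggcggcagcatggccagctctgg
Notch2: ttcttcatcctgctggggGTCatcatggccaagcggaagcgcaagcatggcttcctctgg
Notch3: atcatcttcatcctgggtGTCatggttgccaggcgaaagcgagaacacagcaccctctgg
Notch4: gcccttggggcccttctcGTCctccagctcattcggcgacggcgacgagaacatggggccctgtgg

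The Notch1 stretch lies in exon 28 (chr2:26465430-26465492, minus strand), that of Notch2 in exon 28 (chr3:98138710-98138769, plus strand), that of Notch3 in exon 27 (chr17:32139220-32139279, minus strand) and that of Notch4 in exon 24 (chr17:34584477-34584542, plus strand). All of these bases are coding. Over the last 24 bases, 14 to 17 were identical between any pair of receptors. In the longest Notch1 coding sequence the capital codon is number 1744 of 2531, so that 2364 of its 7593 coding bases (31.1%) follow the cut. Counts were deposited for the whole gene, and reads of the allele and of the endogenous Notch1 transcript could not be told apart. From the valine codon to the end of the coding sequence there were 2325 coding bases in Notch2, 1968 in Notch3 and 1506 in Notch4.

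Depth limits 1 library more than the others. GFPneg replicate 1 held 611465 gene counts, against 9912610 to 16043492 in the other 5 libraries, and 5 noncoding features took up 69.2% of it, against 22.7% to 34.7% elsewhere. In that library 1 count equalled 3.28 CPM (CPM is the gene count per 1000000 counts of the TMM-scaled library size), and the 4 receptors together had 63 counts, against 4985 to 16200 in the other libraries. The fits of the receptors, and of the pathway genes whose tests are given, are therefore printed with and without it. The labels name no sequencing batch. Basal markers were abundant in every library, with a summed level of 7100 to 8413 CPM over the 12 listed genes in GFPpos and 9161 to 14554 CPM in GFPneg. Of these genes, 0 rose and 0 fell, 1 was positive and 11 were negative, with a median log2 fold change of -0.70. Without GFPneg replicate 1 Cnn1 fell, where 0.19% of genes were called lower and 0.412% higher. In bulk libraries fewer cells of a type and less RNA per cell cannot be told apart.

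Against this background the 4 receptors did not move alike. Notch1 and Notch3 counts were higher in GFPpos cells than in GFPneg cells of all 3 pairs, and their groups did not overlap, as was so for 9.53% of tested genes in this direction and 3.63% in the other. Notch2 was close in both groups, and Notch4 was lower in GFPpos cells in the pairs of replicates 2 and 3. By edgeR's quasi-likelihood test over 13873 genes, 0 of the 4 receptors passed an adjusted p of 0.05 (Benjamini-Hochberg), where 0.0649% of all tested genes did (0.0577% higher and 0.00721% lower in GFPpos). Of the receptors, 3 had an unadjusted p below 0.05, a level reached by 330 genes higher (2.38%) and 400 genes lower (2.88%) in GFPpos. DESeq2 without a replicate block called 0 receptors, where it called 0.354% of genes higher and 0.354% lower. The receptor called by limma-voom was Notch3 (0.389% of genes higher, 0.173% lower), as it was by DESeq2 with the replicate block (0.695% higher, 0.445% lower). The log2 fold changes were positive for 3 receptors and negative for 1, with a median of 0.86, beside a median of 0.15 over all tested genes.

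**Figure D1:**
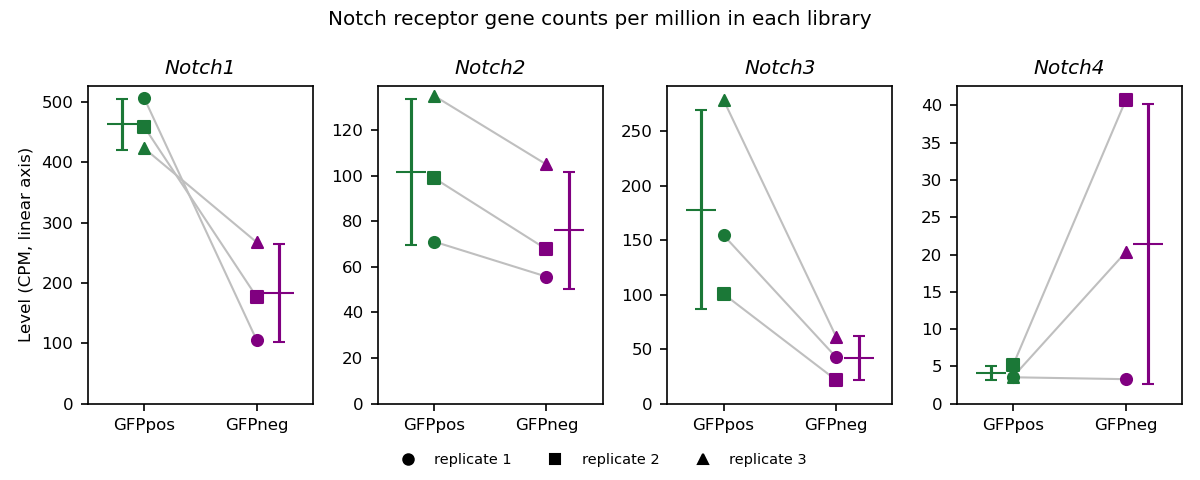
Level of each receptor gene in CPM (linear axis from 0) in the 3 GFPpos and 3 GFPneg libraries. Each point is a library, grey lines join the fractions of a pool, and the bars beside the points give mean and SD (n = 3); the 3 GFPpos libraries lie above all GFPneg libraries for Notch1 and Notch3, and Notch4 reaches 40.7 CPM only in GFPneg replicate 2.

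Notch1 is the receptor whose intracellular domain the allele carries (ENSMUSG00000026923.15, chromosome 2, 26457903 to 26516663, minus strand). Its level was 506, 459 and 423 CPM in GFPpos replicates 1, 2 and 3, against 105, 177 and 267 CPM in GFPneg replicates 1, 2 and 3. The GFPpos libraries lay close together, with the highest 1.20 times the lowest, while the GFPneg libraries spanned 2.55 times. The measured difference was unequal between pools. The ratio of GFPpos to GFPneg was 4.83 in replicate 1 (95% exact interval 3.41 to 7.06), 2.60 in replicate 2 (2.49 to 2.71) and 1.58 in replicate 3 (1.52 to 1.65). These intervals cover counting error only, and those of the 3 pools do not overlap. The replicate 1 ratio also rests on the scaling of GFPneg replicate 1. That library had a TMM factor of 0.501, against 1.05 to 1.22 in the others. Its log2(CPM + 1) values correlated at 0.616 to 0.651 with the other libraries, which correlated at 0.803 to 0.928 among themselves. Over the groups, Notch1 was 2.50-fold higher in GFPpos cells (95% interval 1.36 to 4.60), a log2 fold change of 1.32 (SE 0.41, adjusted p = 0.625 in edgeR's quasi-likelihood test). Without GFPneg replicate 1 the log2 fold change was 1.08 (SE 0.28, adjusted p = 0.146 in the same test).

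Notch3 differed by a similar factor in each pool (ENSMUSG00000038146.8, chromosome 17, 32120820 to 32166852, minus strand). It stood at 155, 101 and 279 CPM in GFPpos replicates 1, 2 and 3, against 42.6, 21.7 and 61.5 CPM in GFPneg replicates 1, 2 and 3. Replicate 3 was the highest and replicate 2 the lowest in both groups. The ratio of GFPpos to GFPneg was 3.63 (2.11 to 6.82), 4.65 (4.16 to 5.20) and 4.53 (4.18 to 4.92) in replicates 1, 2 and 3, and these intervals overlap. The log2 fold change was 2.09 (SE 0.53), a 4.26-fold higher level (95% interval 1.93 to 9.37), with an adjusted p of 0.350 in edgeR's test. With the replicate number as a block the adjusted p was 0.0507 at a log2 fold change of 2.10. Notch3 rose with DESeq2 and the replicate block (adjusted p = 0.0340), with limma-voom (adjusted p = 0.0431) and, in edgeR, with no filter on low counts (adjusted p = 0.0103, where 0.263% of genes were called higher and 0.954% lower). Without GFPneg replicate 1 the log2 fold change was 2.12 (SE 0.50, adjusted p = 0.104 in edgeR's test). Without GFPpos replicate 3 it was 1.61 (SE 0.63, adjusted p = 0.889 in edgeR's test).

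Notch2 differed little (ENSMUSG00000027878.11, chromosome 3, 98013527 to 98150361, plus strand). Its level was 71.1, 99.0 and 135 CPM in GFPpos replicates 1, 2 and 3, against 55.7, 67.8 and 105 CPM in GFPneg replicates 1, 2 and 3. Each GFPpos library was above its GFPneg partner, yet the groups overlapped. The pair ratios of GFPpos to GFPneg were 1.28 (0.792 to 2.20), 1.46 (1.35 to 1.58) and 1.29 (1.20 to 1.38). The log2 fold change was 0.40 (SE 0.46), with a 95% interval from -0.59 to 1.38, so that a fold from 0.665 to 2.61 lay within its error (adjusted p = 1.00 in edgeR's test). Without GFPneg replicate 1 the log2 fold change was 0.26 (SE 0.33, adjusted p = 0.937 in the same test).

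Notch4 had the lowest mean level of the 4 receptors in both groups and was the one with a negative fold change (ENSMUSG00000015468.14, chromosome 17, 34564268 to 34588503, plus strand). It had 39, 67 and 70 counts in GFPpos replicates 1, 2 and 3, against 1, 793 and 223 counts in GFPneg replicates 1, 2 and 3. These counts equalled 3.53, 5.21 and 3.63 CPM in GFPpos, against 3.28, 40.7 and 20.3 CPM in GFPneg. The 3 GFPpos libraries and GFPneg replicate 1 lay between 3.28 and 5.21 CPM, and the other 2 GFPneg libraries stood above them. The ratio of GFPneg to GFPpos was 7.81 (95% exact interval 6.08 to 10.2) in replicate 2 and 5.59 (4.26 to 7.42) in replicate 3. In replicate 1, where the GFPneg library had 1 count, it was 0.928 (0.0229 to 5.48), an interval too wide to give a direction. The log2 fold change was -2.47 (SE 0.91, adjusted p = 0.738 in edgeR's test), with a 95% interval from -4.40 to -0.54. Without GFPneg replicate 1, Notch4 fell (log2 fold change -2.87, SE 0.56, adjusted p = 0.0475 in edgeR's test, where 0.19% of genes were called lower and 0.412% higher). Its groups then did not overlap, as for 13.6% of genes in this direction. That fit rests on 2 GFPneg libraries, and without GFPneg replicate 2 the log2 fold change was -1.67 (SE 1.07, adjusted p = 0.583 in edgeR's test).

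**Figure D2:**
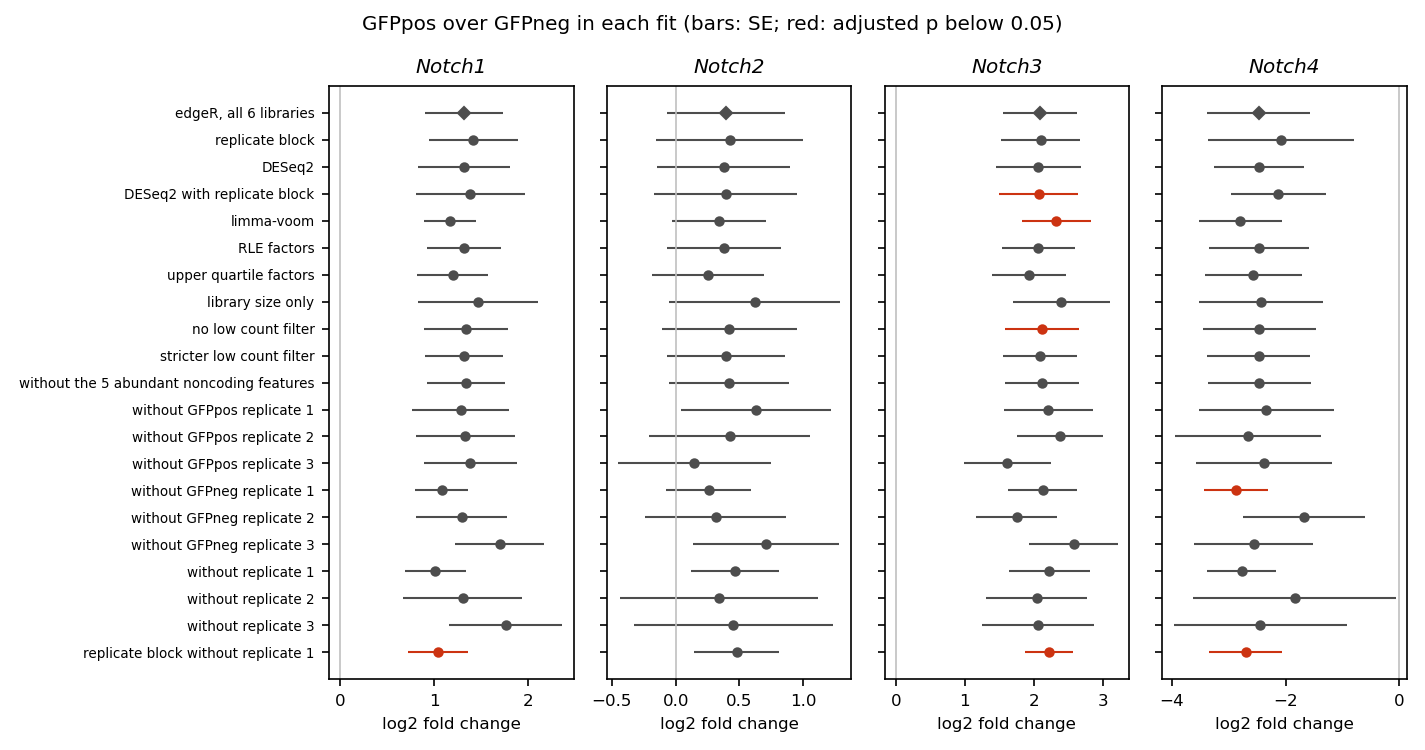
Log2 fold change of each receptor, GFPpos over GFPneg (horizontal axis), with SE as bars and red for an adjusted p below 0.05. The diamond is edgeR's fit to all 6 libraries with group as the only term, and the points are 20 other fits. Notch1, Notch2 and Notch3 were positive and Notch4 negative in every fit shown, and the receptors passed the threshold in 1, 0, 4 and 2 of the 20 other fits.

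The replicate block without replicate 1 called Notch1 (adjusted p = 0.0350), Notch3 (2.54e-08) and Notch4 (0.00123), and not Notch2 (0.754). It holds 2 pairs, and edgeR called 2.52% of all tested genes higher and 1.41% lower in it. With the block and all 3 pairs Notch1 and Notch4 had an adjusted p of 0.296 and 1.00, and edgeR called 0.31% of genes higher and 0.13% lower.

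Ratios between receptors within a library do not depend on the scaling between libraries. For every Notch2 count there were 7.12, 4.63 and 3.13 Notch1 counts in GFPpos replicates 1, 2 and 3, against 1.88, 2.61 and 2.55 in GFPneg replicates 1, 2 and 3. The groups did not overlap, although the exact interval of GFPneg replicate 1 (1.01 to 3.61) reached into the GFPpos range. For every Notch2 count there were 2.17, 1.02 and 2.06 Notch3 counts in GFPpos replicates 1, 2 and 3, against 0.765, 0.320 and 0.586 in GFPneg replicates 1, 2 and 3. Here too the groups did not overlap, and the exact interval of GFPneg replicate 1 was 0.342 to 1.67. Of all other tested genes, 2.52% had a ratio to Notch2 that was higher in every GFPpos library than in every GFPneg library. For Notch4 the ratio to Notch2 was 0.0497, 0.0526 and 0.0269 in GFPpos replicates 1, 2 and 3, against 0.0588, 0.601 and 0.194 in GFPneg replicates 1, 2 and 3, and 6.67% of genes were lower in this way. The GFPneg replicate 1 value rests on 1 Notch4 count, and its exact interval (0.00141 to 0.375) spanned all GFPpos values. These ratios were not tested, and the smallest two-sided p of an exact permutation test of 3 libraries against 3 is 0.10.

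The make-up of the receptor counts is given next as shares. Notch2 held 9.67%, 14.9% and 16.1% of all receptor counts in GFPpos replicates 1, 2 and 3, against 27.0%, 22.1% and 23.1% in GFPneg replicates 1, 2 and 3. Notch3 held 21.01%, 15.2% and 33.1% in GFPpos replicates 1, 2 and 3, against 20.6%, 7.06% and 13.5% in GFPneg replicates 1, 2 and 3. The Notch3 shares of the groups overlapped, and the exact 95% interval of GFPneg replicate 1 (11.5% to 32.7%) included the values of GFPpos replicates 1 and 2. Notch1 held 50.3% to 69.1% in GFPpos and 50.8% to 58.9% in GFPneg libraries. Notch4 held 0.480%, 0.785% and 0.432% in GFPpos replicates 1, 2 and 3, against 1.59%, 13.3% and 4.47% in GFPneg replicates 1, 2 and 3. The Notch4 groups did not overlap, but the interval of GFPneg replicate 1 (0.0402% to 8.53%) spanned all GFPpos values. The 4 genes together summed to 747 ± 89.0 CPM among GFPpos and 323 ± 125 CPM among GFPneg libraries (SD, n = 3 each).

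**Figure D3:**
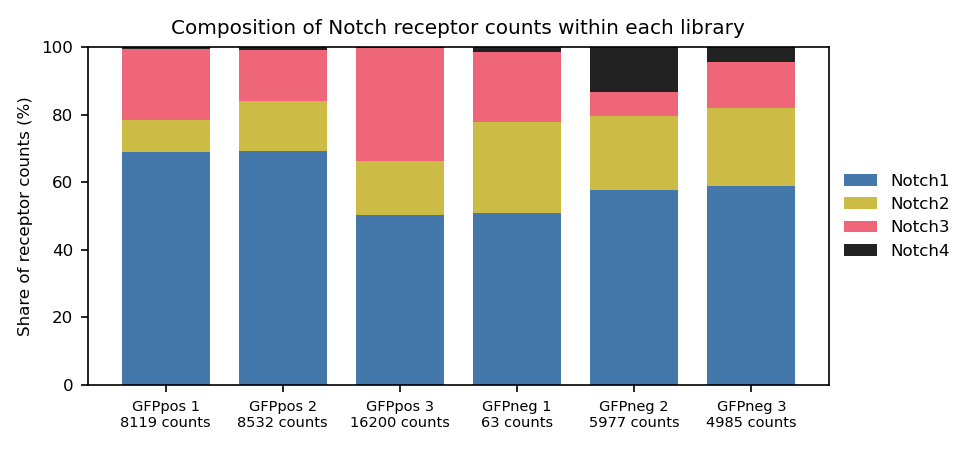
Share of the receptor counts held by each receptor gene (percent, stacked) in each library, with the number of receptor counts under each bar. Notch2 takes a smaller share in the 3 GFPpos libraries (9.67% to 16.1%) than in the 3 GFPneg libraries (22.1% to 27.0%), and the bar of GFPneg replicate 1 rests on 63 counts.

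Levels of different receptors can be compared only per length. Per kb of exonic sequence of the gene, the mean level of Notch1 was 32.5 ± 2.93 CPM per kb among GFPpos and 12.9 ± 5.72 among GFPneg libraries (SD, n = 3 each). That of Notch3 was 22.0 ± 11.3 CPM per kb among GFPpos and 5.18 ± 2.46 among GFPneg libraries. Notch2 had 9.44 ± 2.98 CPM per kb among GFPpos and 7.06 ± 2.38 among GFPneg libraries, and Notch4 had 0.512 ± 0.117 among GFPpos and 2.66 ± 2.32 among GFPneg libraries. In GFPpos cells the order by mean was Notch1, Notch3, Notch2 and Notch4. The first place there was not the same in each library, since Notch3 exceeded Notch1 per exonic kb in GFPpos replicate 3 (34.5 against 29.7 CPM per kb). In GFPneg cells the order by mean was Notch1, Notch2, Notch3 and Notch4. Notch2 and Notch3 there differed by less than their spread, with Notch3 at 5.27 and Notch2 at 5.17 CPM per kb in replicate 1. The order of Notch3 and Notch4 was not the same in each GFPneg library, with 2.68 CPM per kb for Notch3 and 5.05 for Notch4 in replicate 2. The exonic length of Notch1 (14232 bases) joins the exons of 11 annotated transcripts, whereas its coding sequence has 7593 bases. Per kb of coding sequence Notch1 was the highest receptor in all 6 libraries, with 55.8 and Notch3 with 40.1 CPM per kb in GFPpos replicate 3.

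Other annotated genes lie over these loci. On the opposite strand, 0610009E02Rik spans 1488 exonic bases at the 3′ end of Notch1, with 0, 31 and 16 counts in GFPpos replicates 1, 2 and 3, against 0, 2 and 0 in GFPneg. The antisense gene Gm17276 spans 3551 exonic bases of Notch3, with 0, 0 and 21 counts in GFPpos, against 0, 1 and 0 in GFPneg. Notch1 and Notch3 had 2935 and 422 counts or more in the 5 deeper libraries. The strand setting of the counting is not given, and reads from antisense transcripts could be assigned to the receptors or left as ambiguous.

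Among genes other than the receptors, the 3 with the most similar pattern were found for each receptor by the root mean square difference of gene-centred log2(CPM + 1) values over the 6 libraries, where 0 is an identical pattern. For Notch1 they were Shb, an adaptor of tyrosine kinase signalling (0.20), Bysl, a ribosome biogenesis gene (0.21), and the chemokine gene Cxcl1 (0.22), beside a median of 1.09 over 8030 candidate genes. For Notch2 they were Arhgap23, which encodes a GTPase-activating protein (0.12), the RNA-binding protein gene Hnrnpa3 (0.13) and the translation factor gene Eif2b5 (0.14), beside a median of 1.00 over 9271 candidates. For Notch3 they were Rassf6, which encodes a Ras association domain protein (0.27), Ddr2, a collagen receptor kinase gene (0.34), and Prr5l (0.37), beside 1.57 over 6597 candidates. For Notch4 they were the transmembrane collagen gene Col13a1 (0.33), the matrix protease gene Mmp2 (0.44) and the cell adhesion gene Chl1 (0.47), beside 1.63 over 6315 candidates. Mmp2 stood at 45.2, 39.8 and 40.3 CPM in GFPpos replicates 1, 2 and 3, against 23.0, 252 and 281 CPM in GFPneg replicates 1, 2 and 3. Like Notch4, Mmp2 was low in GFPneg replicate 1 and high in the other GFPneg libraries, a likeness by which it was picked. Notch4, Col13a1 and Chl1 each stood at 3.28 CPM in GFPneg replicate 1, the level of 1 count. Between the receptors this difference was 0.63 for Notch1 and Notch2, 0.74 for Notch1 and Notch3, and 2.28 for Notch3 and Notch4.

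**Figure D4:**
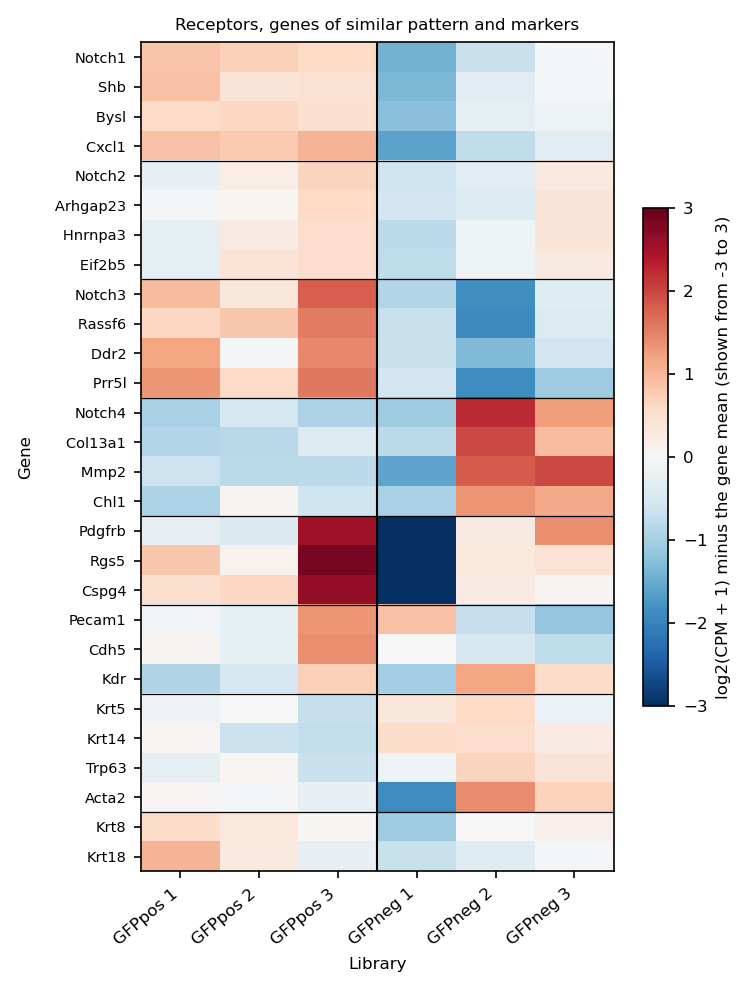
Heatmap of log2(CPM + 1) minus the mean of each gene (color, shown from -3 to 3) for the receptors, each followed by its 3 genes of most similar pattern, and for fixed markers of pericytes (Pdgfrb, Rgs5, Cspg4), endothelium (Pecam1, Cdh5, Kdr), basal cells (Krt5, Krt14, Trp63, Acta2) and luminal cells (Krt8, Krt18). Columns are the 3 GFPpos and 3 GFPneg libraries. Notch3, Pdgfrb, Rgs5 and Cspg4 are highest in GFPpos replicate 3, and Notch4 is high only in GFPneg replicates 2 and 3.

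Since Notch3 is also a pericyte gene, the markers of mural cells (pericytes and vascular smooth muscle) are set beside it. Of 15 markers, 10 were tested, 8 were positive and 2 negative (median log2 fold change 0.72), and 0 rose or fell in edgeR's test. Without GFPneg replicate 1, Steap4 fell, where 0.19% of genes were called lower and 0.412% higher. Their summed level was 395, 369 and 686 CPM in GFPpos replicates 1, 2 and 3, against 32.8, 374 and 379 CPM in GFPneg replicates 1, 2 and 3. GFPneg replicate 1 had counts for 3 of the 15, and Pdgfrb, Rgs5 and Cspg4 were at 0 there, where a count of 0 allows up to 9.84 CPM. Rgs5, which encodes a signalling regulator of pericytes, stood at 38.8, 23.7 and 164 CPM in GFPpos replicates 1, 2 and 3, against 0, 27.2 and 29.5 CPM in GFPneg. Cspg4, the pericyte proteoglycan gene, stood at 21.9, 24.2 and 102 CPM in GFPpos, against 0, 18.4 and 16.3 CPM in GFPneg. GFPpos replicate 3 was the highest library for Rgs5, Cspg4 and Notch3, and among the other tested mural markers for Pdgfrb, Des and Tbx2. Mcam and Gja4 were highest in GFPpos replicate 1, Anpep and Abcc9 in GFPpos replicate 2, and Steap4 in GFPneg replicate 2. The ratio of GFPpos to GFPneg for Notch3 was 3.63, 4.65 and 4.53 in replicates 1, 2 and 3. Of the mural sums in replicate 2, Steap4 made up 32.8 CPM in GFPpos and 122 CPM in GFPneg. The part of mural cells in the Notch3 difference was not tested.

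Endothelial markers are set beside Notch4 and Notch1 in the same way. All 19 were tested and had counts in both groups. Of these, 9 were positive and 10 negative (median log2 fold change -0.05), and 0 rose or fell in edgeR's test with 6 libraries. Their summed level was 1799, 1642 and 4563 CPM in GFPpos replicates 1, 2 and 3, against 3817, 2042 and 1357 CPM in GFPneg replicates 1, 2 and 3. Pecam1, a junction protein gene of endothelium, stood at 367, 324 and 981 CPM in GFPpos and 718, 242 and 176 CPM in GFPneg. The groups overlapped. Notch4 stood at 3.53, 5.21 and 3.63 CPM in GFPpos replicates 1, 2 and 3, against 3.28, 40.7 and 20.3 CPM in GFPneg replicates 1, 2 and 3. The receptor Kdr, another endothelial gene, stood at 39.8, 52.1 and 124 CPM in GFPpos and 36.1, 170 and 109 CPM in GFPneg. The part of endothelial cells in the Notch4 and Notch1 differences was not tested. With the replicate block, Ptprb, an endothelial phosphatase gene, fell (adjusted p = 0.0104 in edgeR's test). That fit called 0.13% of genes lower and 0.31% higher.

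Markers of other cell types were summed in the same way. Luminal markers had 11 of 14 positive (median 0.96) and 0 called, with a summed level of 838 to 1196 CPM in GFPpos and 380 to 762 CPM in GFPneg. With the replicate block, and also without GFPneg replicate 1, Kit rose. Of all tested genes, 0.31% were called higher with the block and 0.412% without GFPneg replicate 1. Schwann cell markers had 1 of 5 tested positive (median -1.37) and 0 called, with sums of 104 to 148 CPM in GFPpos and 182 to 889 CPM in GFPneg. Without GFPneg replicate 1, Cdh19 fell, where 0.19% of genes were called lower. S100b and Cdh19 were at 0 in all GFPpos libraries. Fibroblast markers had 2 of 7 tested positive (median -1.48) and 0 called, with sums of 178 to 331 CPM in GFPpos and 258 to 521 CPM in GFPneg, and Lum and Mfap5 were at 0 in every library. Lymphatic endothelial markers had 2 of 6 positive (median -1.02) with 1 called, Ccl21a, which rose, and sums of 286 to 491 CPM in GFPpos and 138 to 426 CPM in GFPneg. Of 10 immune cell markers 2 were tested, with 0 called, and the sums were 9.15 to 61.7 CPM in GFPpos and 2.82 to 75.4 CPM in GFPneg. GFPneg replicate 1 alone set the low end of the GFPneg range for luminal markers. It also set the high end for Schwann cell, fibroblast, lymphatic and immune markers. In GFPneg replicates 2 and 3 the sums were 762 and 760 CPM (luminal), 182 and 422 (Schwann cell), and 258 and 277 (fibroblast). They were 138 and 201 CPM (lymphatic) and 2.82 and 6.83 CPM (immune) there. The part of these cells in the receptor differences was not tested.

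Outside the receptors, the Notch pathway showed few differences that passed the test. Of 65 listed genes 59 were tested, 32 positive and 27 negative, with a median log2 fold change of 0.04 beside 0.15 over all genes. In edgeR's test 1 of them rose, the target gene Ccnd1, and 0 fell, where 0.0577% of all genes were called higher and 0.00721% lower. Without adjustment, p was below 0.05 for 3 genes with a positive and 4 with a negative log2 fold change. DESeq2 called 2 higher.

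Of 5 ligand genes 4 were tested, with 0 called (2 positive, median -0.21). Jag2 was lower in GFPpos cells in each pair, at 92.8, 84.8 and 97.0 CPM in GFPpos replicates 1, 2 and 3, against 131, 218 and 218 CPM in GFPneg replicates 1, 2 and 3. The groups did not overlap, as for 3.63% of tested genes in this direction. The log2 fold change was -1.06 (SE 0.41, adjusted p = 0.804 in edgeR's test), and -1.24 without GFPneg replicate 1 (SE 0.25, adjusted p = 0.0529). The other Jagged ligand gene, Jag1, was close in both groups, at 192 ± 43.2 CPM among GFPpos and 188 ± 11.3 CPM among GFPneg libraries (SD, n = 3 each). Dll1 had 142 ± 32.2 CPM among GFPpos and 191 ± 133 among GFPneg libraries, and Dll4, a ligand of endothelial tip cells, had 60.0 ± 39.2 CPM among GFPpos and 46.8 ± 26.1 among GFPneg libraries.

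Enzymes that modify the receptors on their way to the surface had 0 of 6 called (3 positive, median 0.03). The Fringe genes Lfng (9.84 ± 7.62 CPM among GFPpos and 14.6 ± 14.4 among GFPneg libraries) and Mfng (11.8 ± 6.72 CPM among GFPpos and 8.10 ± 10.1 among GFPneg libraries), which add sugars to the receptors, were low and variable. The genes of the ADAM proteases and of gamma-secretase had 0 of 7 called (3 positive, median -0.05). Aph1b, a gamma-secretase subunit gene, had 1.11 ± 0.587 CPM among GFPpos and 11.0 ± 10.4 among GFPneg libraries (SD, n = 3 each). Its GFPneg level was 23.0, 3.85 and 6.29 CPM in replicates 1, 2 and 3, and the replicate 1 value rests on 7 counts. The log2 fold change of Aph1b was -3.14 (SE 1.31, adjusted p = 0.843 in edgeR's test). Without GFPneg replicate 1 it was -2.16 (SE 1.35, adjusted p = 0.745 in the same test). Adam10, which encodes the protease of the cut before S3, had 92.3 ± 12.8 CPM among GFPpos and 44.0 ± 47.1 among GFPneg libraries. Adam10 had 0 counts in GFPneg replicate 1. Genes of receptor trafficking and turnover had 0 of 13 called (8 positive, median 0.07).

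In the nuclear complex 0 of 15 genes were called (6 positive, median -0.20). Rbpj, which encodes the DNA-binding partner of all freed Notch domains, stood at 2.36, 20.8 and 16.4 CPM in GFPpos replicates 1, 2 and 3, against 72.1, 25.2 and 50.2 CPM in GFPneg replicates 1, 2 and 3. The groups did not overlap, as for 3.63% of tested genes in this direction, and the GFPneg replicate 1 value rests on 22 counts. The log2 fold change was -1.86 (SE 0.79, adjusted p = 0.850 in edgeR's test), and -1.49 without GFPneg replicate 1 (SE 0.69, adjusted p = 0.559). The coactivator genes Maml2 (90.8 ± 11.7 CPM among GFPpos and 157 ± 39.3 among GFPneg libraries) and Maml3 (31.8 ± 13.8 CPM among GFPpos and 63.4 ± 16.0 among GFPneg libraries) did not pass either. Of the target genes, 10 of 15 tested were positive (median 0.42). Cyclin D1, encoded by Ccnd1, was the 1 that rose (log2 fold change 3.09, SE 0.46, adjusted p = 0.0181 in edgeR's test), at 417, 472 and 439 CPM in GFPpos replicates 1, 2 and 3, against 72.1, 61.2 and 27.1 CPM in GFPneg replicates 1, 2 and 3. Its log2 fold change was 3.34 without GFPneg replicate 1 (adjusted p = 0.00203 in edgeR's test). Ccnd1 did not pass without GFPpos replicate 3 (log2 fold change 3.09, adjusted p = 0.0577), without GFPneg replicate 2 (3.26, adjusted p = 0.0816), with upper quartile factors (2.87, adjusted p = 0.0855) or with library size only (3.41, adjusted p = 0.0504), all in edgeR. Nrarp, a feedback inhibitor of Notch, did not pass edgeR's test with 6 libraries and the low count filter (adjusted p = 0.392). It passed that test once GFPneg replicate 1 was left out (adjusted p = 0.0400). With all 6 libraries Nrarp also rose in DESeq2 (0.0122), DESeq2 with the replicate block (0.0171) and edgeR with no low count filter (0.0349). It did not pass limma-voom (0.0657) or edgeR with the replicate block (0.180). Hes1 had a log2 fold change of 2.06 (SE 0.63, adjusted p = 0.573 in edgeR's test) with 6 libraries. Its log2 fold change was 1.70 (SE 0.40, adjusted p = 0.103) in edgeR once GFPneg replicate 1 was left out. Hes1 rose in edgeR with no low count filter (0.0343) and did not pass in DESeq2 (0.134). Id1, an inhibitor of basic helix-loop-helix factors, stood at 0.181, 1.63 and 1.14 CPM in GFPpos replicates 1, 2 and 3, against 3.28, 13.5 and 7.93 CPM in GFPneg replicates 1, 2 and 3 (log2 fold change -3.15, SE 1.26, adjusted p = 0.839 in edgeR's test), with a log2 fold change of -3.42 without GFPneg replicate 1 (SE 1.11, adjusted p = 0.278). Hes5 had counts in 1 GFPpos library and 0 in GFPneg, and Ptcra 0 in GFPpos.

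**Figure D5:**
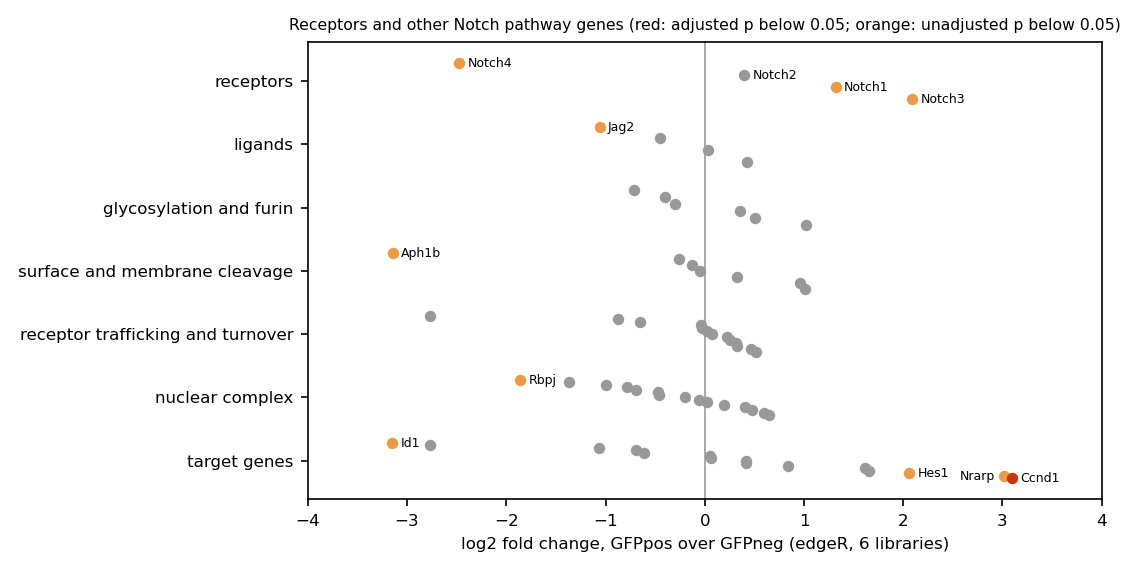
Log2 fold change, GFPpos over GFPneg (horizontal axis), of the 4 receptors and of the other tested Notch pathway genes, by role. Red marks an adjusted p and orange an unadjusted p below 0.05 in edgeR's test; Ccnd1 is the 1 red point, and the receptors lie on both sides of 0.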

How the data were processed

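The deposited values are whole-number counts per gene symbol. The submitters' processing notes name FastQC, cutadapt, TopHat2, HTSeq and build mm10, and the sources used here give no versions, strand setting, counting mode or annotation release. The authors' tables had 0 unused value columns. HTSeq summary rows (reads in no feature, 28.8% to 66.4%, and ambiguous reads, 0.390% to 2.07%) stayed out of library sizes and tests. Libraries are pools of mice. With group as the only term, the p-values set the group difference against the spread of libraries within each group. The pairing by pool enters only the fits with the replicate block.

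Counts were tested with edgeR 4.0.16 (quasi-likelihood F test, TMM, filterByExpr, group as the only term) in R 4.3.3 on 13873 genes, with Benjamini-Hochberg adjustment. SE is the unshrunk log2 fold change divided by the square root of F. Exact 95% intervals of ratios and shares cover counting error only. DESeq2 1.42.0, limma-voom (limma 3.58.1), other scalings and filters, the replicate block and fits without libraries were alternatives, and scripts were tested on simulated data. Both fractions of a number came from the same pool, so the numbers pair the libraries. Deviations of the fractions from their group means correlated at -0.036, 0.122 and -0.0013.

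Gene models came from GENCODE M21 (GRCm38). The members, the 6 pathway lists, the 8 marker lists and the tests were chosen with earlier results of these data known. Named genes are the receptors, the 3 most similar genes of each (at least 5 CPM on average), the members of smallest p in each pathway list and fixed pathway and marker genes. Kit, Ccl21a, Ptprb, Steap4, Cnn1, Cdh19, Mcam, Gja4, Anpep, Abcc9, Des, Tbx2 and genes at 0 were named after their values were seen. Some individual marker genes are not reported here.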

Additional observations from a re-analysis of the deposited data

How the results depend on the processing

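Directions of the 4 receptors were the same in all 20 alternatives, with log2 fold changes of 1.01 to 1.76 for Notch1, 0.145 to 0.709 for Notch2, 1.61 to 2.57 for Notch3 and -2.87 to -1.67 for Notch4. The 9 fits without a library or a pair gave these same ranges, with adjusted p from 0.146 to 0.855 for Notch1, 0.890 to 1.00 for Notch2, 0.104 to 0.889 for Notch3 and 0.0475 to 1.00 for Notch4 (edgeR). The main fit was edgeR's test on all 6 libraries with TMM, the low count filter and group as the only term. No receptor passed in it, and some passed in other fits. Notch3 passed with DESeq2 and the replicate block (log2 fold change 2.07), limma-voom (2.32), no low count filter (2.12) and the replicate block without replicate 1 (2.22). Notch1 passed in that last fit (1.04), and Notch4 in that last fit (-2.70) and without GFPneg replicate 1 (-2.87). The cause was not tested. In edgeR the replicate block with all pairs changed no receptor call.

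Genes called higher numbered 8 with 6 libraries, and 43 with the replicate block, 46 with DESeq2, 89 with DESeq2 and the replicate block, 54 with limma-voom, 2 with upper quartile factors, 5 with library size only, 65 with no low count filter, 386 with the replicate block without replicate 1 and 2 to 63 without a library or pair. Genes called lower numbered 1, and 18, 46, 57 and 24 in the first 4 of these, 236 with no low count filter, 216 with the replicate block without replicate 1 and 1 to 68 without a library or pair. Of the other pathway genes 1, Ccnd1, was called higher, against 2 with DESeq2, with or without the replicate block, 0 with upper quartile factors or library size only, 3 with no low count filter or the replicate block without replicate 1, and 0 to 2 without a library or pair. None was called lower with 6 libraries in edgeR (4 at an unadjusted p below 0.05), 2 were with the replicate block without replicate 1, and 0 in any fit without a library or pair.

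The log2 fold changes of all genes moved by a median of -0.10 with upper quartile factors, 0.11 with library size only, -0.18 with limma-voom, 0.18 with the replicate block, 0.12 with DESeq2 and the replicate block, 0.14 without GFPneg replicate 2 and -0.25 without GFPneg replicate 1. The difference in share of receptor counts, GFPpos minus GFPneg, ranged without a library from 3.84 to 13.2 percentage points for Notch1, -11.8 to -8.56 for Notch2, 4.34 to 13.3 for Notch3 and -8.30 to -2.46 for Notch4. Per kb of coding sequence in place of exonic sequence, Notch1 had a mean of 61.0 CPM per kb among GFPpos and 24.1 among GFPneg libraries, Notch2 13.7 among GFPpos and 10.3 among GFPneg libraries, and Notch4 0.700 among GFPpos libraries. The 63 receptor counts of GFPneg replicate 1 limit every value that rests on that library.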
